A study of Homo sapiens with 80 samples.

Results

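Human Jurkat T cells that spent the last 20 s of their incubation at 9 g (hypg20s) were compared with cells that stayed at 1 g (Ctrl). Both groups were incubated for 15 min, against 60 min for the 60 min groups named below. The comparison was defined by the sample labels alone, as the 6 hypg20s and the 6 Ctrl libraries, so that it holds 12 of the 80 libraries of the series. The comparison asks which genes and functions differ at the earliest of the centrifugation times tested. Jurkat clone E6-1 is a line of leukemic T cells that grew from 1 clone, so that the libraries share 1 genetic background. Both groups were unmodified cells held in pipettes at 1 g; the hypg20s pipettes were spun in a pipette centrifuge right before lysis, and the Ctrl pipettes were not. The labels do not say whether libraries of a group came from separate cultures, so the p-values measure the spread between libraries, which may in part be technical. Total RNA was depleted of ribosomal RNA and sequenced with strand information, which keeps transcripts without a poly-A tail. Besides Ctrl, 3 further groups of 6 libraries were compared across all genes: 75 s at 9 g (hypg75s), 60 min at 9 g (hypg60) and 60 min at 1 g (Ctrl60), whose count columns carry the addition of HEPES, a buffer, in their names. The columns of hypg60 do not; if those cells had no HEPES, its effect and that of 9 g cannot be told apart at 60 min. For the course over time of single genes, the groups spun for 3, 5, 7, 9 and 15 min were used as well (6 libraries each, and 5 at 15 min, where library 75 was left out).

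The libraries held between 27.3 M and 36.1 M counted read pairs (M, 1000000) in Ctrl (median 34.4 M) and between 31.6 M and 37.9 M in hypg20s (median 33.9 M). The cells matched their label: all 14 T-lineage markers, among them LCK and the CD3 chains, were above 1 CPM (counts per 1000000), with a summed level of 4303 to 4554 CPM in Ctrl and 4427 to 4605 CPM in hypg20s. Of 8 B cell markers, 3 were above 1 CPM, namely CR2, BLK and CD79A. Their list summed to between 100.5 and 112 CPM in Ctrl and between 100.5 and 113 CPM in hypg20s. None of the 10 monocyte and granulocyte markers reached 1 CPM, and ELANE and S100A8 were at 0 in all libraries. Of 11 epithelial and fibroblast markers, COL1A1 alone was above 1 CPM and 7 were at 0.

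Cells can alter an RNA level within seconds to minutes only at RNAs that are made or destroyed fast. Known fast responders are the immediate early genes, whose transcription needs no new protein, and RNAs with short half-lives, such as that of MYC. RNA sequencing of whole cells measures the sum of synthesis and decay, and fewer cells of a kind and less RNA per cell cannot be told apart. Handling in the centrifuge and 9 g went together in this design and cannot be told apart.

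The libraries differed in a property that has to be known before single genes are read. The level of genes with a low GC content varied between libraries of the same group. Relative to the Ctrl mean, the median log2 level of the decile of genes with the lowest GC content ran from −0.20 to 0.29 in Ctrl and from −0.49 to 0.0028 in hypg20s. Ctrl replicate 3 was the highest of the Ctrl libraries and hypg20s replicate 16 the highest of the hypg20s libraries, and the groups overlapped. The mean GC content, weighted by counts, was 53.1% ± 0.23 in Ctrl and 53.4% ± 0.26 in hypg20s (SD, n = 6 each; difference 0.316 percentage points, exact two-sided permutation test p = 0.054, adjusted p = 0.14 over 5 library measures). Counts of calls are therefore given both without and with a correction that levels the dependence on GC content in each library. A called gene printed with its uncorrected value alone was called with the same sign in both fits unless stated otherwise. Counts that moved much without Ctrl replicate 3 and hypg20s replicate 16 are also given without them.

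Without the correction, 1074 of 16137 genes tested were upregulated at 20 s (6.66%) and 1384 were downregulated (8.58%), together 15.2% (edgeR quasi-likelihood test, adjusted p under 0.05, no fold change limit). With the correction, 885 of 15931 genes were upregulated (5.56%) and 673 downregulated (4.22%), together 9.78%. A single model of all 10 groups called 510 up and 168 down, and 0 and 0 with the correction (edgeR; 383 of 17543 at an unadjusted p under 0.05); without library 75 of the 15 min group, which lacks counts over a large part of the genome, it called 828 and 499, and 713 and 406 with the correction. A correction for exon length in place of GC content gave 1599 upregulated and 1277 downregulated genes. In both fits, 577 genes were upregulated and 473 downregulated, and none was called in opposite directions. Of the genes called only without the correction, 496 were upregulated and 909 downregulated, while 308 upregulated and 200 downregulated genes were called only with it. The changes were small; a rise or fall by a value is given as a log2 fold change ± SE throughout. The median absolute log2 fold change of the called genes was 0.28 without and 0.21 with the correction, and 3 called genes exceeded a log2 fold change of 1 in size in each fit; without the correction these were decreases of genes with a mean under 1 CPM. For 645 genes all hypg20s libraries lay above all Ctrl libraries (4.00% of genes tested) and for 313 genes all lay below (1.94%), together 5.94%. Without Ctrl replicate 3 and hypg20s replicate 16, 1361 of 16142 genes were upregulated and 2143 downregulated. With the correction these were 800 and 641 of 15933. Counts of gene lists without these 2 libraries are to be set against these counts of all genes. Single libraries moved the uncorrected count of downregulated genes most, to 2664 without hypg20s replicate 16 and to 539 without hypg20s replicate 14.

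Without the correction, the gene with the highest log2 fold change among those that the rules for named genes picked was CHAC1, an enzyme that degrades glutathione and a known target of the stress factor ATF4 (chromosome 15, 40952962 to 40956512, plus strand, GRCh38). Its level ran from 3.46 to 4.67 CPM in Ctrl (median 4.12) and from 7.41 to 8.22 CPM in hypg20s (median 7.80). Every hypg20s library was above every Ctrl library, and the lowest hypg20s value was well over the highest Ctrl value. The level was 1.90-fold higher at 20 s, with a log2 fold change of 0.93 ± 0.076 (SE), adjusted p = 3.5e-06, and 0.84 ± 0.072 (SE), adjusted p = 8.1e-07 with the GC correction. KCTD21, a substrate adaptor of a cullin ubiquitin ligase, ran from 6.78 to 7.95 CPM in Ctrl (median 7.59) and from 11.7 to 12.5 CPM in hypg20s (median 12.0). These ranges did not overlap either, and the log2 fold change was 0.68 ± 0.057 (SE), adjusted p = 3.9e-06, and 0.62 ± 0.053 with the correction. P2RY11, a receptor for extracellular ATP that couples to calcium and cAMP, ran from 10.9 to 13.8 CPM in Ctrl (median 12.5) and from 18.0 to 21.8 CPM in hypg20s (median 18.8), again without overlap. Its log2 fold change was 0.66 ± 0.071 (SE), adjusted p = 4.9e-05, and 0.55 ± 0.065 with the correction; it shares sequence with a readthrough transcript from its neighbour PPAN, so that its counts could in part belong to that transcript.

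The ATF4 element is often written TGATGNAA. The CHAC1 promoter is printed here because its gene had the highest uncorrected log2 fold change of the named genes: the 100 bases that lie 250 to 151 bases before the RefSeq start (GRCh38.p14, chr15:40953221-40953320, plus strand) hold 1 match, on the opposite strand, in capitals.
CHAC1: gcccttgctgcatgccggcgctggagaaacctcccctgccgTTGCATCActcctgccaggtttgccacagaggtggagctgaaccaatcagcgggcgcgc
Over all 27305 symbols with a promoter window, 3.19% held TGATGNAA in the 250 bases before the start. Of the 10787 windows of genes tested 1.37% did, and so did 5 of the 449 windows of genes upregulated in both fits (1.11%). The match is a description of these letters and says nothing about occupancy. Ensembl, which the counts used, starts the gene further upstream, so that the window lies inside its CHAC1 gene.

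Other named genes rose in both fits as well. PHF23, which binds methylated histone H3 through its PHD finger, ran from 44.5 to 49.9 CPM in Ctrl (median 46.5) and from 60.7 to 70.8 CPM in hypg20s (median 67.6). The 2 groups were apart, and the log2 fold change of 0.50 ± 0.043 (SE), adjusted p = 4.2e-06 stayed at 0.44 ± 0.034 with the GC correction. BCL9L, a coactivator of beta-catenin, had a log2 fold change of 0.50 ± 0.054 (adjusted p = 4.9e-05), and 0.40 ± 0.038 with the correction. AHDC1, a DNA-binding protein with AT-hook motifs, reached 0.50 ± 0.038 (adjusted p = 1.8e-06), and 0.40 ± 0.038 with the correction. ZFPM1, a cofactor of GATA factors, reached 0.50 ± 0.075 (adjusted p = 7.8e-04), and PHETA1, an endosomal trafficking protein, 0.50 ± 0.078 (adjusted p = 0.0010). Their hypg20s libraries all lay above their Ctrl libraries, which the rule that picked them, PHF23 and P2RY11 required. SLC25A44, the mitochondrial carrier of branched-chain amino acids, ran from 45.1 to 47.0 CPM in Ctrl (median 45.7) and from 61.0 to 66.2 CPM in hypg20s (median 62.8). It did not overlap between groups and its fold change hardly moved with the correction, from 0.47 ± 0.032 to 0.45 ± 0.029 (log2).

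Among 33 histone methyltransferases and demethylases tested, 7 were upregulated and 4 downregulated, and 9 and 2 with the correction. The list held a larger share of upregulated genes than all genes tested, 21.2% against 6.66% (27.3% against 5.56% with the correction), while its median log2 fold change was −0.0053. Without Ctrl 3 and hypg20s 16, 8 rose and 8 fell, and 8 and 3 with the correction. SETD1B and SETD1A, the catalytic subunits of the complexes that write most H3K4 trimethylation, rose by 0.48 ± 0.062 and 0.32 ± 0.042 (log2; adjusted p = 2.1e-04 and 2.4e-04). KMT2B, which does so at a subset of promoters, rose by 0.28 ± 0.043 (adjusted p = 8.4e-04). For SETD1B the values ran from 60.3 to 77.2 CPM in Ctrl (median 71.1) and from 83.8 to 107 CPM in hypg20s (median 97.7), without overlap. KMT2D, KDM6B, KDM4A and SETDB1 rose in both fits as well. SETD2, the writer of H3K36 trimethylation, fell by 0.31 ± 0.10 without the correction and was not called with it (−0.14 ± 0.049, adjusted p = 0.085).

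The immediate early genes did not move together. Of 34 tested, 4 were upregulated (JUN, JUND, MYC and ATF3) and 3 downregulated (KLF6, PPP1R15A and BTG1), which is 11.8% and 8.82% against 6.66% and 8.58% of all genes, with a median log2 fold change of −0.0035. With the correction the counts were 4 and 5 (11.8% and 14.7%, against 5.56% and 4.22%), JUND and BTG1 were no longer called, and MCL1 was upregulated. Without Ctrl replicate 3 and hypg20s replicate 16, 6 rose and 3 fell, against 1361 and 2143 of all 16142 genes. With the correction these were 6 and 5, against 800 and 641 of all 15933 genes. JUN, a subunit of the factor AP-1, ran from 14.1 to 17.2 CPM in Ctrl (median 15.2) and from 18.0 to 23.4 CPM in hypg20s (median 21.0). All hypg20s libraries were above Ctrl, and JUN rose by 0.44 ± 0.071 (SE), adjusted p = 0.0012, and by 0.37 ± 0.061 with the correction. MYC, the growth regulator, ran from 385 to 417 CPM in Ctrl (median 403) and from 512 to 532 CPM in hypg20s (median 525). The ranges were apart and the increase was small but precise, with a log2 fold change of 0.37 ± 0.029 (SE), adjusted p = 1.8e-06, and 0.31 ± 0.033 with the correction. FOS, the classical partner of JUN, ran from 1.31 to 1.78 CPM in Ctrl (median 1.53) and from 1.29 to 1.91 CPM in hypg20s (median 1.59). These ranges overlapped, and its log2 fold change was 0.052 ± 0.13 (SE), adjusted p = 0.82. EGR1, a zinc finger factor that responds to serum and stretch, ran from 6.71 to 8.88 CPM in Ctrl (median 7.95) and from 7.62 to 9.52 CPM in hypg20s (median 9.04), overlapping between groups, with a log2 fold change of 0.16 ± 0.076 (SE), adjusted p = 0.16. IER2 was called only with the correction, with a log2 fold change of −0.15 ± 0.031 (SE), adjusted p = 0.0051. MNT, the antagonist of MYC that binds the same partner MAX, fell by 0.27 ± 0.048 (adjusted p = 0.0021), and the acetyl-histone reader YEATS2 fell by 0.37 ± 0.038 (adjusted p = 3.4e-05); both did not overlap between groups. With the correction their log2 fold changes were −0.36 ± 0.035 and −0.35 ± 0.032.

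**Figure D1:**
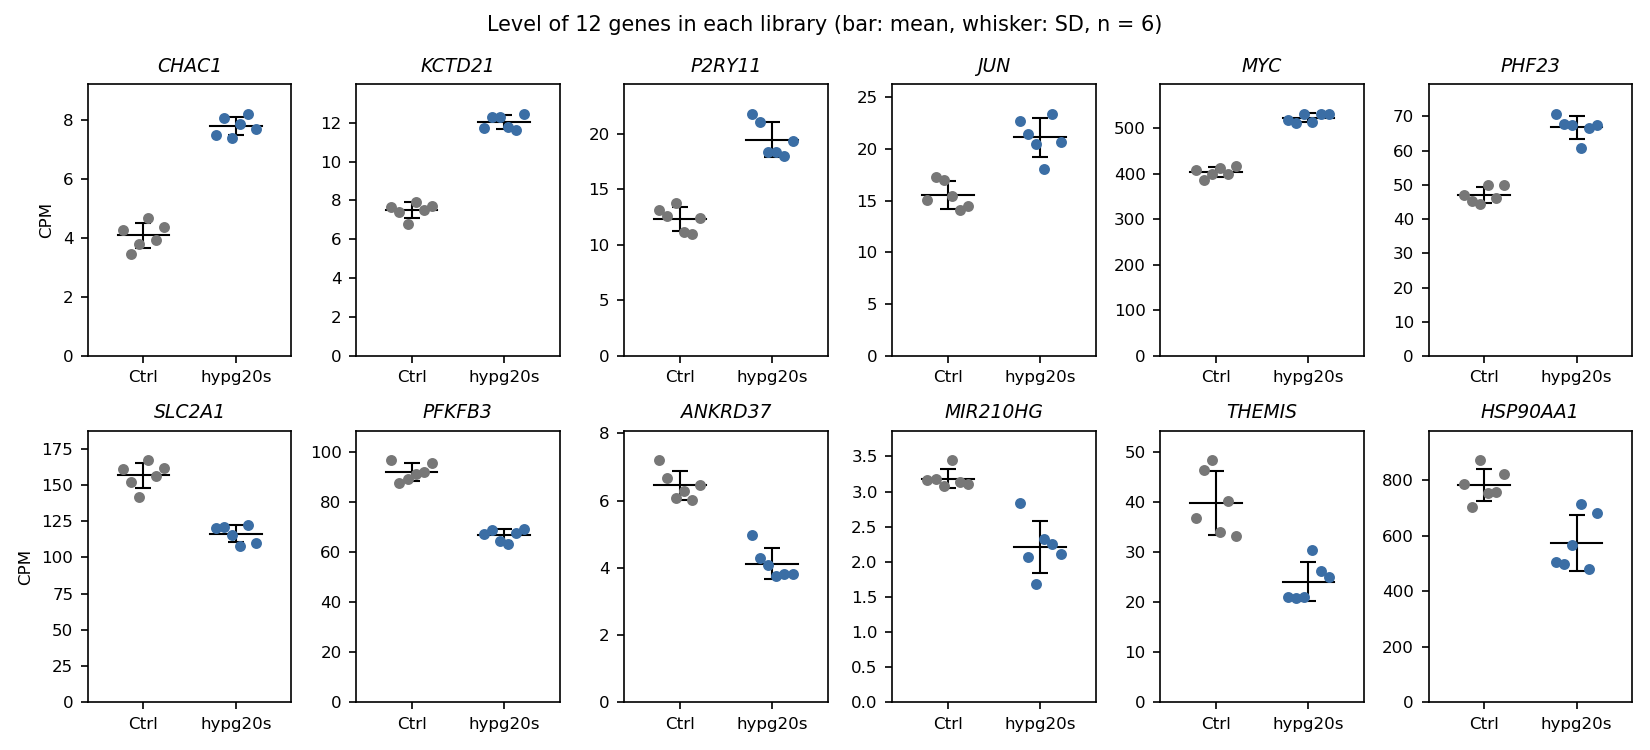
Level of 12 genes in each Ctrl and hypg20s library. The y axis gives CPM on a scale that starts at 0 in each panel, points stand for libraries and bars for the mean ± SD (n = 6 each). For CHAC1, KCTD21, P2RY11, JUN, MYC and PHF23 all hypg20s points lie above the Ctrl points, and for SLC2A1, PFKFB3, ANKRD37, MIR210HG and THEMIS all lie below; HSP90AA1 overlaps.

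PFKFB3 and SLC2A1, genes of glycolysis and glucose uptake, had the lowest adjusted p of all downregulated genes in both fits. They are known to be driven by hypoxia-inducible factors. These factors are destroyed when oxygen is present and otherwise bind ACGTG motifs and induce glycolytic and mitophagy genes. Of 21 glycolytic genes, 3 were downregulated (14.3%, against 8.58% of all genes, and 4.22% with the correction) and none upregulated in each fit, and they were SLC2A1, PFKFB3 and HK2. The median log2 fold change of the list was 0.040, and −0.014 with the correction. SLC2A1, the main glucose transporter of T cells (GLUT1), ran from 142 to 167 CPM in Ctrl (median 158) and from 108 to 122 CPM in hypg20s (median 118). No hypg20s library reached the lowest Ctrl library, and the log2 fold change was −0.43 ± 0.042 (SE), adjusted p = 1.9e-05, and −0.50 ± 0.031 (SE), adjusted p = 1.4e-08 with the correction. PFKFB3, which makes the allosteric activator of phosphofructokinase, ran from 87.5 to 96.8 CPM in Ctrl (median 91.7) and from 63.2 to 69.4 CPM in hypg20s (median 67.5). The groups were apart, with a log2 fold change of −0.46 ± 0.035 (SE), adjusted p = 1.8e-06, and −0.54 ± 0.033 (SE), adjusted p = 1.4e-08 with the correction. HK2, the inducible hexokinase that commits glucose to the cell, ran from 124 to 138 CPM in Ctrl (median 131) and from 105 to 114 CPM in hypg20s (median 109). It fell by 0.27 ± 0.034 (SE), adjusted p = 1.8e-04, without overlap, against a log2 fold change of −0.28 ± 0.037 with the correction. The other 18 members did not pass the test without the correction. GAPDH ran from 5733 to 6953 CPM in Ctrl (median 6443) and from 6075 to 6939 CPM in hypg20s (median 6695), with overlap, and its log2 fold change was 0.046 ± 0.058 (SE), adjusted p = 0.62.

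A list of 46 genes of the hypoxia-inducible factor axis was drawn up after these values were seen, so its counts only describe them. The median log2 fold change of the list was −0.059, and −0.022 with the correction. It held 12 downregulated and 3 upregulated genes (26.1% and 6.52%, against 8.58% and 6.66% of all genes), and 10 and 1 with the correction (21.7% and 2.17%, against 4.22% and 5.56%); without Ctrl replicate 3 and hypg20s replicate 16 these were 14 and 3, and 9 and 1. ANKRD37, a small ankyrin repeat protein whose gene is a strong hypoxia target, ran from 6.03 to 7.21 CPM in Ctrl (median 6.37) and from 3.76 to 4.99 CPM in hypg20s (median 3.96). All hypg20s libraries were lower, with a log2 fold change of −0.65 ± 0.082 (SE), adjusted p = 1.8e-04, and −0.69 ± 0.073 (SE), adjusted p = 7.3e-06 with the correction. MIR210HG, the host RNA of the hypoxia-induced miR-210, was low but ran from 3.08 to 3.45 CPM in Ctrl (median 3.15) and from 1.69 to 2.83 CPM in hypg20s (median 2.18), without overlap. Its log2 fold change was −0.53 ± 0.10 (SE), adjusted p = 0.0046, and −0.61 ± 0.10 (SE), adjusted p = 4.9e-04 with the correction. BNIP3, a receptor for mitophagy, ran from 44.8 to 51.1 CPM in Ctrl (median 49.2) and from 37.3 to 43.0 CPM in hypg20s (median 38.8). It fell by 0.31 ± 0.044 (SE), adjusted p = 4.9e-04, without overlap, and changed little with the correction (−0.33 ± 0.045). ADM, the peptide hormone adrenomedullin, fell by 0.69 ± 0.18 (adjusted p = 0.020), at low levels that ran from 0.497 to 0.627 CPM in Ctrl (median 0.587) and from 0.246 to 0.450 CPM in hypg20s (median 0.362). Its groups were apart as well, and the log2 fold change with the correction was −0.77 ± 0.19. RORA and BHLHE40, a nuclear receptor and a repressor of the clock, also fell in both fits. HIF1A itself, the oxygen-regulated subunit, fell without the correction by 0.43 ± 0.12 but was not called with it (−0.14 ± 0.051, adjusted p = 0.11).

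Not all targets of the axis followed, and the 1 member called up with the correction was not VEGFA. PDK1, which shuts pyruvate out of the mitochondria, had a log2 fold change of −0.19 ± 0.069 (SE), adjusted p = 0.067, and 0.0051 ± 0.048 with the correction. The stress regulator DDIT4 had 0.069 ± 0.036 (SE), adjusted p = 0.20. EGLN3 and EGLN1, the prolyl hydroxylases that mark HIF1A, had −0.030 ± 0.095 and −0.29 ± 0.12 (adjusted p = 0.86 and 0.11), and none of these 4 passed the test. VEGFA, the angiogenic factor, had the opposite sign: it was called up without the correction, by 0.23 ± 0.073 (SE), adjusted p = 0.048, was not called with it (adjusted p = 0.17), and lost the call when any of 10 single libraries (Ctrl replicates 1 to 5 or hypg20s replicates 13 to 17) was left out.

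Promoter windows of downregulated genes of the axis are printed because the letters ACGTG, the core of the hypoxia response element, can be read in them. They come from RefSeq on GRCh38.p14, hold 100 bases each, and have ACGTG or its complement in capitals; ACGTG lies inside CACGTG, the E-box that MYC and MNT bind, which then counts once on each strand. The windows lie at chr4:185396631-185396730 on the plus strand for ANKRD37, at chr11:568576-568675 on the minus strand for MIR210HG and at chr10:131982006-131982105 on the minus strand for BNIP3.
ANKRD37: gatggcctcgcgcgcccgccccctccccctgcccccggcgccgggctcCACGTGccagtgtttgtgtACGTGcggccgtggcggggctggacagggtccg
MIR210HG: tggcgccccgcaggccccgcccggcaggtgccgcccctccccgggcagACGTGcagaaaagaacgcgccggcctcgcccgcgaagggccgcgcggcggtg
BNIP3: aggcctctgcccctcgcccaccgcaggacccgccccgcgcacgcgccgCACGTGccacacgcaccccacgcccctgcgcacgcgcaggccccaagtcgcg
The ANKRD37 window lies inside the Ensembl gene, which starts further upstream, the BNIP3 window reaches over the gene's start, and the MIR210HG window lies before its gene. The ANKRD37 window holds 3 matches, BNIP3 2 and MIR210HG 1, while the 250 bases before the starts of SLC2A1, PFKFB3 and ADM hold 0. Those before the start of HK2, which are not printed, hold 2. ACGTG was present in 18.7% of all windows and in 23.6% of those of genes tested, of which 10787 (66.8%) could be matched by symbol. It was present in 116 of 376 windows of genes downregulated in both fits (30.9%) and in 98 of 449 windows of genes upregulated in both (21.8%), and CACGTG in 14.6% and 8.24% of them. Among genes of the hypoxia list that were tested, 19 of 39 windows held ACGTG (48.7%), and so did 5 of the 9 windows of those downregulated in both fits.

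Host RNAs of microRNAs were among the called noncoding RNAs: of 26 tested, 5 were upregulated and 1 downregulated (19.2% and 3.85%, against 6.66% and 8.58% of all genes), and 5 and 2 with the correction (19.2% and 7.69%, against 5.56% and 4.22%). MIR223HG, the host of the myeloid miR-223, ran from 13.0 to 15.7 CPM in Ctrl (median 14.3) and from 17.6 to 24.2 CPM in hypg20s (median 20.5). All hypg20s libraries were above Ctrl, and it rose by 0.51 ± 0.081 (SE), adjusted p = 0.0012, and by 0.63 ± 0.10 with the correction. The mature microRNAs were not measured by these libraries. Their RefSeq sequences are given with the seed, bases 2 to 8, in capitals, since their host RNAs moved in opposite directions.
hsa-miR-223-3p: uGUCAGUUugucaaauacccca
hsa-miR-210-3p: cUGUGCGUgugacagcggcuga
They lie at chrX:66018937-66018958 on the plus strand and at chr11:568112-568133 on the minus strand. The intergenic noncoding RNAs named LINC counted 5 upregulated and 2 downregulated of 216 (2.31% and 0.926%), and antisense RNAs 13 and 10 of 493 (2.64% and 2.03%), both below the share of all genes tested. With the correction these counts were 8 and 5, and 10 and 8. Without Ctrl 3 and hypg20s 16, the LINC counts were 7 and 5 of 214, and 7 and 2 with the correction. Of 11 abundant nuclear noncoding RNAs such as MALAT1 and NEAT1, none was called in either fit, while 3 fell without Ctrl 3 and hypg20s 16 in the uncorrected fit.

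Among genes of at least 10 CPM called in both fits and without overlap between groups, the largest decreases were in genes of low GC content. In these the GC correction cut the fold change. NOC3L, a factor of ribosome assembly, ran from 12.5 to 20.0 CPM in Ctrl (median 13.3) and from 6.33 to 12.2 CPM in hypg20s (median 7.48). The groups did not overlap, and the log2 fold change was −0.80 ± 0.15 (SE), adjusted p = 0.0041, against −0.48 ± 0.080 (SE), adjusted p = 8.1e-04 with the correction. THEMIS, an adaptor that tunes T cell receptor signals, ran from 33.1 to 48.4 CPM in Ctrl (median 38.4) and from 20.8 to 30.5 CPM in hypg20s (median 23.1). The groups were apart, and the log2 fold change was −0.72 ± 0.11 (SE), adjusted p = 8.7e-04, and −0.39 ± 0.038 (SE), adjusted p = 2.8e-06 with the correction. CDK1, the kinase that starts mitosis, ran from 29.2 to 46.0 CPM in Ctrl (median 32.3) and from 18.8 to 29.1 CPM in hypg20s (median 21.4), without overlap. Its log2 fold change was −0.63 ± 0.12 (SE), adjusted p = 0.0030, and −0.25 ± 0.041 (SE), adjusted p = 5.0e-04 with the correction. Log2 fold changes were −0.61 ± 0.10 for NSA2, which matures the large ribosomal subunit, −0.58 ± 0.11 for ORC3 of the origin recognition complex, −0.58 ± 0.10 for MRPL1 of the mitochondrial ribosome, −0.58 ± 0.10 for the splicing factor SRSF11 and −0.57 ± 0.11 for the actin capping subunit CAPZA2. With the correction the log2 fold changes of these 5 lay between −0.35 ± 0.040 (SRSF11) and −0.26 ± 0.068 (MRPL1), and NSA2 lost the corrected call without Ctrl replicate 4, hypg20s replicate 14 or hypg20s replicate 17. Ctrl replicate 3 held the highest Ctrl value of all 8 of these genes, as it did for the low-GC genes at large.

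Genes that hold and condense chromosomes also gave many decreases. Of 24 cohesin and condensin genes and CTCF, 11 were downregulated (45.8% against 8.58% of all genes) and none upregulated, with a median log2 fold change of −0.42. With the correction 7 were downregulated (29.2% against 4.22%) and 1 upregulated, and the median was −0.12. SMC2, a core subunit of condensin, ran from 27.3 to 60.7 CPM in Ctrl (median 36.0) and from 19.3 to 32.5 CPM in hypg20s (median 24.0). The groups overlapped, and it fell by 0.72 ± 0.17 (SE), adjusted p = 0.015, against a log2 fold change of −0.36 ± 0.080 (SE), adjusted p = 0.0072 with the correction. RAD21, the cohesin subunit cleaved at anaphase, ran from 187 to 248 CPM in Ctrl (median 197) and from 124 to 194 CPM in hypg20s (median 144). With overlapping groups, its log2 fold change was −0.41 ± 0.10 (SE), adjusted p = 0.014, and −0.21 ± 0.045 (SE), adjusted p = 0.0058 with the correction. STAG2, STAG1, SMC6 and NCAPD3 fell in both fits too, and so did NCAPG, a call that was lost in each fit without hypg20s replicate 15, and CTCF, the insulator protein, was upregulated with the correction alone, by 0.11 ± 0.031. Without Ctrl replicate 3 and hypg20s replicate 16, 18 members fell without and 8 with the correction, and 0 rose in either fit, so that CTCF was not called. Of 53 centromere proteins and kinesins, 4 rose and 9 fell (7.55% and 17.0%, against 6.66% and 8.58% of all genes), and 4 and 5 with the correction (7.55% and 9.43%, against 5.56% and 4.22%); without Ctrl 3 and hypg20s 16 these were 6 and 16, and 2 and 5. CENPQ, of the inner kinetochore, fell by 0.78 ± 0.089 (SE), adjusted p = 8.2e-05, against a log2 fold change of −0.38 ± 0.10 with the correction, and the mitotic kinesin KIF18B rose by 0.27 ± 0.032 (SE), adjusted p = 1.1e-04, and by 0.18 ± 0.035 with the correction.

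Genes of the heat shock response, mostly chaperones of several cell compartments and their cofactors, along with the factors HSF1 and HSF2, were more often called lower than higher at 20 s. Of 23 tested, 11 were downregulated (47.8%, against 8.58% of all genes) and 1 upregulated (HSPA1B), and 8 (34.8%, against 4.22%) and 1 (HSF2, the second heat shock factor) with the correction, with median log2 fold changes of −0.11 and −0.099. Without Ctrl replicate 3 and hypg20s replicate 16 these counts were 11 and 1, and 7 and 1. HSP90AA1, the inducible HSP90, ran from 704 to 872 CPM in Ctrl (median 773) and from 479 to 714 CPM in hypg20s (median 536). The groups overlapped, and it fell by 0.45 ± 0.092 (SE), adjusted p = 0.0063, against a log2 fold change of −0.37 ± 0.073 (SE), adjusted p = 0.0031 with the correction. DNAJA1, a cochaperone of HSP70, ran from 179 to 205 CPM in Ctrl (median 185) and from 126 to 157 CPM in hypg20s (median 137). These groups did not overlap, and the log2 fold change was −0.43 ± 0.053 (SE), adjusted p = 1.5e-04, and −0.28 ± 0.043 (SE), adjusted p = 3.1e-04 with the correction. HSPH1, an exchange factor of HSP70, fell by 0.49 ± 0.088 (SE), adjusted p = 0.0026, against a log2 fold change of −0.21 ± 0.064 with the correction. HSPA8, the constitutive HSP70, fell by 0.25 ± 0.047 (SE), adjusted p = 0.0040, against a log2 fold change of −0.20 ± 0.054 with the correction. Both were called with the correction too, a call that HSPA8 lost without Ctrl replicate 4 or hypg20s replicate 13 and HSPH1 without any of 8 libraries (Ctrl 1, 4 and 6, hypg20s 13 to 17). HSPE1, SERPINH1 and HSPA4L also fell in both fits. DNAJB1, a known target of HSF1, ran from 135 to 153 CPM in Ctrl (median 149) and from 139 to 158 CPM in hypg20s (median 154). Its groups overlapped and its log2 fold change was 0.048 ± 0.038 (SE), adjusted p = 0.41. HSPA1B, the inducible HSP70, had 0.27 ± 0.076 (SE), adjusted p = 0.026, with overlapping groups; it is nearly identical to HSPA1A, so the split of reads between them is uncertain, and without Ctrl replicate 2, hypg20s replicate 15 or hypg20s replicate 17 it was not called.

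CHAC1 belongs to the ATF4 response, whose genes were upregulated at about the share of all genes. Of 28 genes of the ATF4 and unfolded protein responses, 2 were upregulated (CHAC1 and SESN2, an inhibitor of mTORC1) and 6 downregulated (7.14% and 21.4%, against 6.66% and 8.58% of all genes), and 2 (CHAC1 and EIF2AK3) and 3 with the correction (7.14% and 10.7%, against 5.56% and 4.22%). Chaperones of the endoplasmic reticulum were among the decreases. HSPA5, known as BiP, fell by 0.20 ± 0.034 (SE), adjusted p = 0.0017, and was not called with the correction, where its log2 fold change was −0.14 ± 0.045 (SE), adjusted p = 0.052. DNAJB9, its cochaperone, ran from 3.74 to 5.00 CPM in Ctrl (median 4.12) and from 2.40 to 3.28 CPM in hypg20s (median 2.93). The groups were apart, and it fell by 0.54 ± 0.10 (SE), adjusted p = 0.0025, against a log2 fold change of −0.36 ± 0.10 with the correction, a call that was lost without Ctrl replicate 1 or 4 or without hypg20s replicate 14, 15 or 17. PPP1R15A, the phosphatase subunit that ends the integrated stress response, fell by 0.21 ± 0.044 (SE), adjusted p = 0.0063, against a log2 fold change of −0.29 ± 0.036 with the correction. Of 16 genes of the NRF2 antioxidant response, 1 was downregulated (6.25%), TXN, and none with the correction, and 2 fell without Ctrl 3 and hypg20s 16 in the uncorrected fit.

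Part of the transcripts of the mitochondrial genome rose. Both strands of this small circular genome are transcribed in full and then cut, and the minus strand carries MT-ND6 and some of the transfer RNAs that punctuate the genes. In the test were 21 plus-strand and 8 minus-strand genes. In all, 8 of 29 were upregulated (27.6%, against 6.66% of all genes) and none downregulated, and 16 and none with the correction (55.2%, against 5.56%). Without Ctrl replicate 3 and hypg20s replicate 16, 8 rose and 1 fell, and 16 and 1 with the correction. The split by strand was made after the values were seen. Of the minus-strand genes 3 were called up, and 6 with the correction, against 5 and 10 of the 21 plus-strand genes. The 8 minus-strand genes, MT-ND6 and 7 transfer RNAs, all had positive log2 fold changes, between 0.32 and 0.58 with a median of 0.52. The 12 plus-strand mRNAs had values between 0.0012 and 0.23, with a median of 0.13. With the correction the medians were 0.67 and 0.25. The 7 plus-strand transfer RNAs ran from −0.41 to 0.66, with a median of 0.18, and from −0.22 to 1.08 with the correction, with a median of 0.51. The highest of them lay above every minus-strand gene in both fits. MT-ND6, a subunit of complex I, ran from 56.2 to 94.3 CPM in Ctrl (median 86.3) and from 89.0 to 136 CPM in hypg20s (median 127). The groups overlapped, and it rose by 0.58 ± 0.12 (SE), adjusted p = 0.0068, and by 0.77 ± 0.12 (SE), adjusted p = 3.7e-04 with the correction. MT-TP, the transfer RNA for proline, rose by 0.57 ± 0.12 (SE), adjusted p = 0.0059, without overlap, and by 0.98 ± 0.15 (SE), adjusted p = 2.7e-04 with the correction, where it lay above CHAC1. MT-ND2 rose by 0.23 ± 0.054 (SE), adjusted p = 0.012, and by 0.39 ± 0.075 with the correction. MT-CO1, of complex IV, had 0.14 ± 0.063 (SE), adjusted p = 0.13, and was called only with the correction, unless Ctrl replicate 1, 3 or 4 or hypg20s replicate 13, 14, 15 or 17 was left out. MT-RNR1 and MT-RNR2, the ribosomal RNAs that the library preparation was meant to remove, had log2 fold changes of −2.23 ± 0.93 and −2.54 ± 0.91 and were not called (adjusted p = 0.11 and 0.069). The mitochondrial genome held 1.49% ± 0.10 of counts in Ctrl and 1.62% ± 0.098 in hypg20s (SD, n = 6 each; exact two-sided permutation test p = 0.048, adjusted p = 0.14 over 5 library measures), and the unadjusted p was over 0.05 without any one of 8 libraries (Ctrl 1, 3, 4 and 6, hypg20s 13, 15, 16 and 17).

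**Figure D2:**
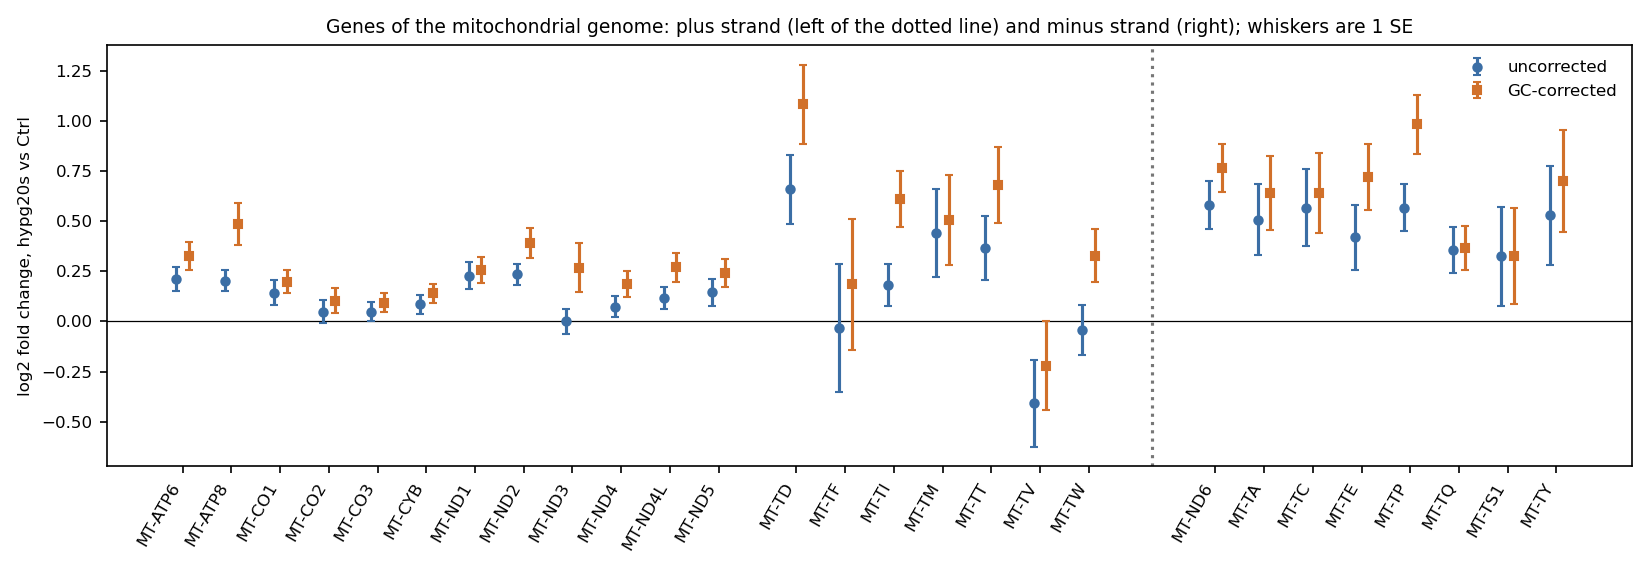
Log2 fold change ± SE of each gene of the mitochondrial genome at 20 s, without and with the GC correction, with plus-strand genes on the left and minus-strand genes on the right. The 2 ribosomal RNAs are left out; the 8 minus-strand genes lie between 0.32 and 0.58 without the correction, and the plus-strand transfer RNAs between −0.41 and 0.66.

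Most proteins of the same organelle are encoded in the nucleus. Of 78 nuclear genes of oxidative phosphorylation, none was upregulated (6.66% of all genes were) and 10 were downregulated (12.8% against 8.58%), and none and 4 (5.13% against 4.22%) with the correction, with a median log2 fold change of −0.0022. COX6C, a subunit of complex IV, fell by 0.39 ± 0.071 (SE), adjusted p = 0.0029, against a log2 fold change of −0.27 ± 0.055 with the correction. Of 77 mitochondrial ribosomal proteins 16 were downregulated (20.8%) and of 86 cytosolic ones 11 (12.8%), and 4 of each with the correction (5.19% and 4.65%). RPS27A, a fusion of ubiquitin and a ribosomal protein, ran from 280.4 to 319.5 CPM in Ctrl (median 297) and from 249 to 271 CPM in hypg20s (median 254). It did not overlap and fell by 0.21 ± 0.037 (SE), adjusted p = 0.0021; processed pseudogenes of ribosomal protein genes can share its reads. Of 47 proteasome subunits 6 were downregulated (12.8%), and none with the correction; without Ctrl 3 and hypg20s 16, 3 rose and 8 fell, and 1 and none with the correction.

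Genes of membrane signalling, cytoskeleton and nuclear envelope link force to the nucleus, and their calls varied between lists. All genes tested were upregulated in 6.66% and downregulated in 8.58% of cases, and in 5.56% and 4.22% with the correction. Of 30 genes of the T cell receptor complex and its proximal signals 1 was called (3.33% downregulated), PTPRC, the phosphatase CD45, but 2 rose and 5 fell without Ctrl replicate 3 and hypg20s replicate 16, and none and 1 with the correction. Its level ran from 71.9 to 119 CPM in Ctrl (median 87.2) and from 48.7 to 82.8 CPM in hypg20s (median 60.9), with overlap, and fell by 0.58 ± 0.14 (SE), adjusted p = 0.014, against a log2 fold change of −0.30 ± 0.058 with the correction. Of 22 genes of calcium entry and NFAT, ORAI1 and ORAI2, pore subunits of the store-operated channel, were upregulated and CALM2 downregulated, none of them with the correction, which called RCAN1, a calcineurin inhibitor, and PPP3R1, the calcineurin regulatory subunit, up instead. Of 19 mechanosensitive and volume-regulated channels, 3 were upregulated (15.8%), namely PIEZO1, PKD1 and LRRC8A, and none downregulated; 1 fell without Ctrl 3 and hypg20s 16. LRRC8A, the obligate subunit of the volume-regulated anion channel, ran from 82.6 to 90.9 CPM in Ctrl (median 88.9) and from 93.9 to 104 CPM in hypg20s (median 101). The groups did not overlap, and the rise of 0.19 ± 0.033 (SE), adjusted p = 0.0025 was the only one of these called with the correction (0.11 ± 0.027 (SE), adjusted p = 0.015). PIEZO1, a stretch-activated cation channel, had 0.13 ± 0.036 (SE), adjusted p = 0.028, against 0.037 ± 0.031 with the correction, and without Ctrl replicate 1 or 5 or hypg20s replicate 13, 14 or 17 it was not called.

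In the nuclear lamina and linker complex, 3 of 19 genes rose and 3 fell (15.8% each), and 1 and 2 with the correction (5.26% and 10.5%). NUP153, a nucleoporin of the nuclear basket, ran from 135 to 155 CPM in Ctrl (median 145) and from 153 to 182 CPM in hypg20s (median 171). The groups overlapped, and it rose by 0.22 ± 0.042 (SE), adjusted p = 0.0044, and by 0.34 ± 0.028 (SE), adjusted p = 6.6e-07 with the correction. TMPO, which encodes the LAP2 lamina proteins, fell by 0.32 ± 0.077 (SE), adjusted p = 0.015, against a log2 fold change of −0.16 ± 0.038 with the correction. Of 48 core genes of the actin cytoskeleton 7 were downregulated (14.6%) and none upregulated, and 5 with the correction (10.4%), among them WIPF1 and CAPZA2. Without Ctrl 3 and hypg20s 16, 12 fell and 1 rose, and 4 and none with the correction. Of 15 tubulins none was called in either fit. Of 17 integrins, ITGA5, the fibronectin receptor chain, rose by 0.32 ± 0.038 (SE), adjusted p = 1.1e-04, without overlap, and by 0.25 ± 0.031 with the correction, while ITGA4 and ITGB1 fell. ITGB1 was not called with the correction (−0.12 ± 0.054, adjusted p = 0.18). The calls of ITGA4 and ITGB1 were lost without any of 7 and 5 single libraries, Ctrl replicate 3 among them.

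In the lists that follow, the shares of all genes to compare with are 6.66% up and 8.58% down, and 5.56% and 4.22% with the correction. In the Notch and MYC axis, which drives T cell leukemia, 4 genes rose and 4 fell of 22 (18.2% each), and 5 and 5 with the correction (22.7% each). NOTCH3 rose by 0.24 ± 0.032 (SE), adjusted p = 2.6e-04, and by 0.15 ± 0.027 with the correction. TAL1, the leukemic T cell factor of Jurkat, rose by 0.15 ± 0.028 (SE), adjusted p = 0.0033, and by 0.10 ± 0.027 with the correction. HES1 and DTX1, direct Notch targets, fell in both fits, with log2 fold changes of −0.18 ± 0.049 and −0.13 ± 0.039 without and −0.20 ± 0.044 and −0.23 ± 0.028 with the correction. In the NF-kB system, 4 rose and 3 fell of 17 (23.5% and 17.6%), and 1 and 3 with the correction (5.88% and 17.6%); without Ctrl 3 and hypg20s 16 these were 4 and 4, and 1 and 1. The inhibitor NFKBIE rose by 0.30 ± 0.062 (SE), adjusted p = 0.0066, and TNFAIP3, the ubiquitin editor that ends the signal, ran from 71.1 to 76.9 CPM in Ctrl (median 72.4) and from 60.2 to 64.1 CPM in hypg20s (median 61.1). It did not overlap and fell by 0.24 ± 0.031 (SE), adjusted p = 1.8e-04, against a log2 fold change of −0.25 ± 0.031 with the correction. Of 29 interferon response genes, 1 rose and 4 fell (3.45% and 13.8%), and 1 and 2 with the correction (3.45% and 6.90%); without Ctrl 3 and hypg20s 16 these were 1 and 6, and 1 and 1. IRF1 rose by 0.27 ± 0.036 (SE), adjusted p = 2.4e-04, and by 0.22 ± 0.029 with the correction, while IFI16, a sensor of DNA, fell by 0.39 ± 0.077 (SE), adjusted p = 0.0048 and had a log2 fold change of −0.13 ± 0.052 (SE), adjusted p = 0.12 with the correction. Of 16 members of the BCL2 family 2 rose and 3 fell (12.5% and 18.8%), and 1 and 3 with the correction (6.25% and 18.8%); without Ctrl 3 and hypg20s 16 these were 4 and 3, and 1 and 2. BBC3, the p53 target PUMA, fell by 0.28 ± 0.066 (SE), adjusted p = 0.013, against a log2 fold change of −0.38 ± 0.064 with the correction, and PMAIP1, known as NOXA, fell by 0.42 ± 0.10 (SE), adjusted p = 0.014, against −0.29 ± 0.082 with the correction.

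The sterol genes showed the pattern of a list whose count is the same but whose members are not. In each fit 4 of 21 rose and 1 fell (19.0% and 4.76%, against 6.66% and 8.58% of all genes, and 5.56% and 4.22% with the correction); without Ctrl 3 and hypg20s 16, 6 rose and 3 fell, and 3 and 1 with the correction. Without the correction SREBF1, SREBF2, MVK and DHCR7 rose, and those that rose with it included MSMO1, SQLE and HMGCS1, of which HMGCS1 was not called without any one of 7 libraries. SREBF1, a transcription factor of lipid synthesis, ran from 166 to 181 CPM in Ctrl (median 172) and from 186 to 204 CPM in hypg20s (median 193). The groups were apart, and the log2 fold change was 0.17 ± 0.031 (SE), adjusted p = 0.0035, against 0.066 ± 0.030 (SE), adjusted p = 0.18 with the correction. SQLE, squalene epoxidase of the sterol pathway, ran from 110.4 to 125 CPM in Ctrl (median 116) and from 109.9 to 127 CPM in hypg20s (median 119), with overlap and with log2 fold changes of 0.029 ± 0.040 without and 0.20 ± 0.039 with the correction (adjusted p = 0.66 and 0.0025).

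RNA processing and chromatin packaging were mixed. Of 22 SR proteins and CLK kinases 1 rose and 5 fell (4.55% and 22.7%, against 6.66% and 8.58% of all genes), and 2 and 4 with the correction (9.09% and 18.2%, against 5.56% and 4.22%). SRSF11 and the kinase SRPK2 fell in both fits, and SRSF5 rose in both. Without Ctrl replicate 3 and hypg20s replicate 16, 10 fell, and 3 with the correction. Of 62 replication-dependent histone genes 1 was upregulated (1.61%), and 3 of 60 with the correction (5.00%), but 17 rose without Ctrl replicate 3 and hypg20s replicate 16, and 7 with the correction. Of 399 zinc finger genes named ZNF, 51 rose and 32 fell (12.8% and 8.02%), the latter near the share of all genes. With the correction 45 rose and 15 fell (11.3% and 3.76%). Without those 2 libraries 62 rose and 60 fell of 398, against 1361 and 2143 of all 16142 genes. With the correction these were 41 and 14, against 800 and 641 of all 15933 genes. ZNF623 ran from 17.9 to 20.4 CPM in Ctrl (median 19.1) and from 23.5 to 27.3 CPM in hypg20s (median 25.5). The groups were apart, and it rose by 0.40 ± 0.049 (SE), adjusted p = 1.3e-04, and by 0.46 ± 0.043 with the correction. Small nucleolar RNAs gave 1 rise and 1 fall in 98 (1.02% each), and 3 and 1 in 97 with the correction. Their host genes gave 2 rises in 28 (7.14%), and 4 with the correction (14.3%). Of 24 spliceosomal and signal recognition RNAs 1 was downregulated, RNU6-8, a U6 copy that cannot be told from its near-identical relatives and that was not called with the correction or without Ctrl replicate 2 or 4 or hypg20s replicate 15 or 17. With the correction 1 other member was downregulated, RN7SL3, with a log2 fold change of −0.22 ± 0.060.

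**Figure D3:**
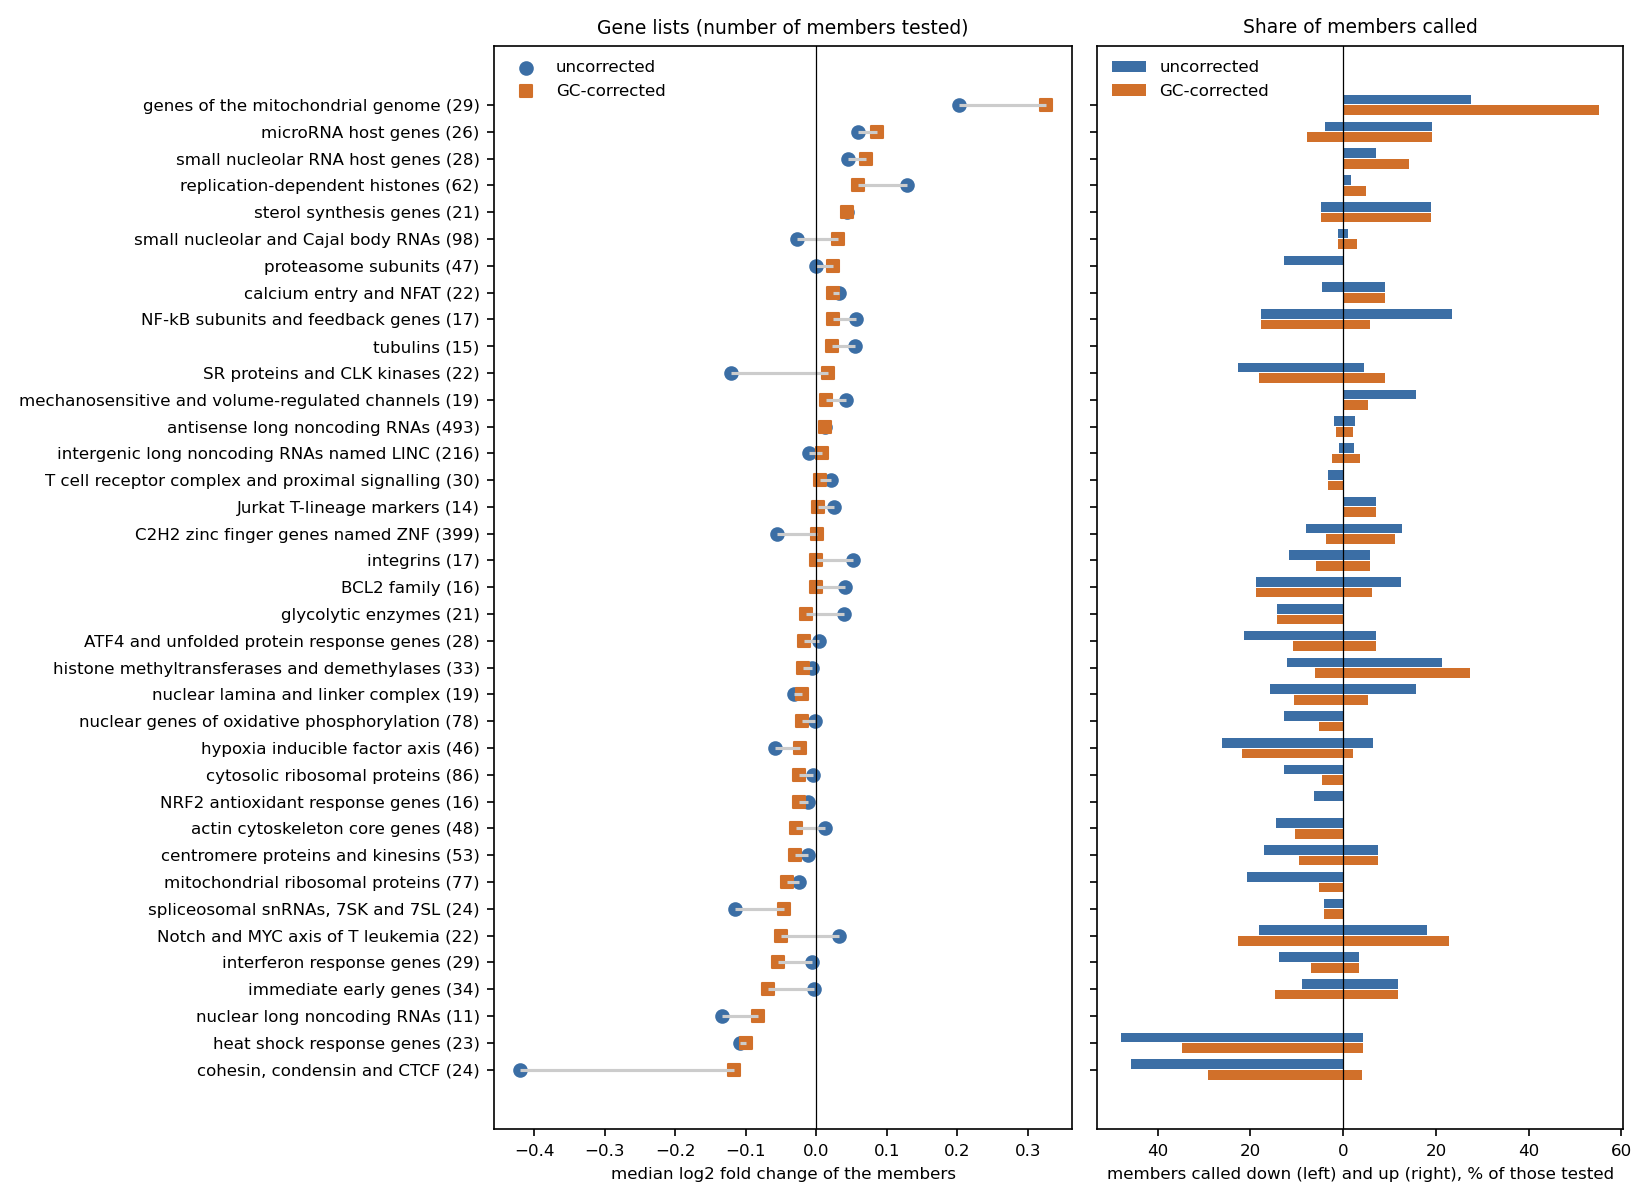
Gene lists with at least 10 tested members: the median log2 fold change of the list, and the percentage of its members upregulated and downregulated, without and with the GC correction. Cohesin, condensin and CTCF have the lowest median of these lists without the correction (−0.42, against −0.12 with it), and the mitochondrial genome has the highest (0.20, and 0.33 with it).

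The dependence on GC content ran through the whole transcriptome. Across 15931 genes, which are not independent replicates, Spearman's rho between log2 fold change and GC content was 0.60 without the correction and −0.0019 with it. In the decile of genes with the lowest GC content (23.5% to 40.1%) the median log2 fold change was −0.34, with 4 genes upregulated and 525 downregulated. In the decile with the highest (61.8% to 83.3%) it was 0.090, with 220 and 6. With the correction the counts were 70 and 103 in the lowest and 63 and 65 in the highest decile. The median GC content was 49.9% of all genes tested, 56.9% of upregulated and 41.0% of downregulated genes, and 49.0% and 46.8% with the correction. Whether the dependence came from the cells or from the libraries was not tested.

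**Figure D4:**
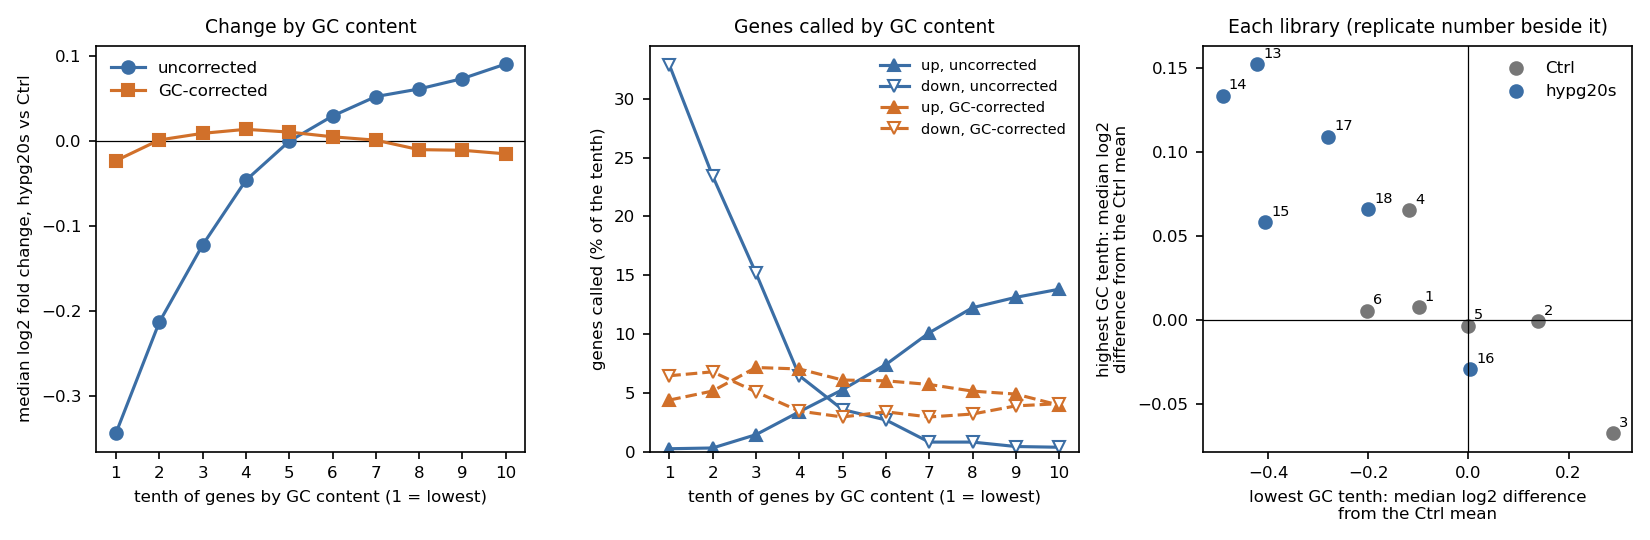
Dependence of the 20 s comparison on gene GC content. The panels show the median log2 fold change by decile of genes, the percentage of genes upregulated and downregulated in each decile, both without and with the correction, and for each library the median log2 difference from the Ctrl mean in the lowest and highest decile. The lowest decile has a median of −0.34 without and −0.023 with the correction, and Ctrl replicate 3 and hypg20s replicate 16 have the highest level of low-GC genes in their groups.

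Some calls rested on the correction. SREK1, a splicing regulator, CENPF, a kinetochore protein, and PUS7L, a pseudouridine synthase, had log2 fold changes of −0.67 ± 0.20, −0.67 ± 0.21 and −0.72 ± 0.21 without the correction. With it these were −0.34 ± 0.11, −0.40 ± 0.14 and −0.32 ± 0.10 (adjusted p = 0.055, 0.068 and 0.058), and they were not called, nor were they in the uncorrected fit without any one of 8 libraries (Ctrl 2, 3 and 5, hypg20s 13, 14, 15, 17 and 18). MIR142HG, JUND and PRR36 rose by 0.33 ± 0.091, 0.31 ± 0.10 and 0.29 ± 0.074 and were not called with it (0.22 ± 0.074, 0.18 ± 0.059 and 0.17 ± 0.057, adjusted p = 0.070, 0.060 and 0.067); the call of JUND was also lost without any one of 9 libraries and that of MIR142HG without hypg20s replicate 13, 14, 15 or 17. KIAA0232 and the phosphatase PPM1A were upregulated only with the correction, by 0.43 ± 0.056 and 0.43 ± 0.039, against 0.27 ± 0.10 and 0.10 ± 0.072 without it. FRAT1, an activator of Wnt signals, CEBPA, a myeloid factor, and ZNF407 were downregulated only with it, with log2 fold changes of −0.26 ± 0.060, −0.30 ± 0.056 and −0.30 ± 0.092, and ZNF407 lost this call without any one of 9 libraries. Protein-coding genes were called more often than long noncoding RNAs and pseudogenes. Of 12185 tested, 19.1% were called, against 3.67% of 2346 long noncoding RNAs and 3.56% of 899 pseudogenes, whose median level of 1.04 and 0.954 CPM was far under the 22.8 CPM of protein-coding genes.

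Few genes differed between the controls at 1 g. Ctrl60 differed from Ctrl in 1 upregulated and 1 downregulated gene of 16109 (0.00621% each, 0.0124% together; 578 at an unadjusted p under 0.05, and 4 and 7 by DESeq2). The upregulated gene was EGR1, with a log2 fold change of 1.16 ± 0.063 (SE), adjusted p = 3.0e-07, and the downregulated gene was PHF13 (−0.28 ± 0.036, adjusted p = 0.010). Measured against Ctrl60 in place of Ctrl, the log2 fold change at 20 s was −0.996 for EGR1 and −0.17 for DNAJB1, so the signs of these 2 genes depended on the control.

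Few genes differed between 75 s and 20 s at 9 g. Between hypg75s and hypg20s, 0 genes were upregulated and 1 downregulated of 16187 (0.00618%; 2326 at an unadjusted p under 0.05; 175 and 94 by DESeq2; 44 and 18 of 15980 with the GC correction, 0.388% together). The downregulated gene was EGR1 (log2 fold change −0.77 ± 0.081, adjusted p = 0.00090).

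At 60 min, against Ctrl60, whose columns alone name HEPES, 2791 of 16318 genes were upregulated (17.1%) and 2125 downregulated (13.0%), together 30.1%, and 2744 (17.0%) and 4234 (26.3%) of 16104 with the correction, together 43.3%. This comparison shares no library with that at 20 s. Of 1073 genes upregulated at 20 s and tested at 60 min, 496 were upregulated there (46.2%) and 28 downregulated; of 1382 downregulated at 20 s, 569 were downregulated (41.2%) and 17 upregulated. With the correction in both comparisons, 380 of 884 were upregulated again and 84 downregulated, and 378 of 671 were downregulated again and 20 upregulated. The difference between the effects at 60 min and at 20 s was called for 1461 genes in the positive direction (8.58% of 17026) and 742 in the negative (4.36%), together 12.9%. With the correction these were 1511 (9.00% of 16780) and 3016 (18.0%), together 27.0%, so that most differences were then negative.

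CHAC1 was no longer higher than its controls from 15 min on. Its log2 fold change was 0.93 ± 0.076 at 20 s, 0.79 ± 0.089 at 75 s, 0.62 ± 0.084 at 5 min and −0.030 ± 0.11 at 15 min (5 libraries; −0.31 ± 0.10 (SE), adjusted p = 0.017 with the correction), all against Ctrl, and −0.14 ± 0.11 (SE), adjusted p = 0.33 at 60 min against Ctrl60, and −0.30 ± 0.083 (SE), adjusted p = 0.0081 at 60 min with the correction. The effect at 60 min minus that at 20 s was −1.06 (log2, adjusted p = 2.6e-06). MYC went from 0.37 ± 0.029 at 20 s to −0.11 ± 0.048 at 60 min (−0.25 ± 0.047 with the correction), with a difference of −0.48 (adjusted p = 9.1e-07). KCTD21 was upregulated at both times, 0.68 ± 0.057 and 0.58 ± 0.080. ANKRD37 was lower at both times, −0.65 ± 0.082 and −0.59 ± 0.072, and near its Ctrl level at 15 min (0.13 ± 0.10). SLC2A1 and PFKFB3 were less reduced at 60 min: the effects at 60 min lay above those at 20 s by 0.28 and 0.36 (adjusted p = 0.036 and 5.3e-05).

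At 60 min the heat shock list had more increases than decreases. Of 23 tested, 7 were upregulated and 1 downregulated (17.1% and 13.0% of all genes were), and 8 and 4 with the correction (17.0% and 26.3%). DNAJB1 differed between the times by 1.42 (log2, adjusted p = 4.0e-14), HSPA1B by 2.43 (adjusted p = 4.0e-14) and HSPH1 by 0.79 (adjusted p = 0.0040). More transcripts of the mitochondrial genome were upregulated at 75 s and at 60 min than at 20 s. At 75 s, 21 of 29 were upregulated and 1 downregulated, with a median log2 fold change of 0.40. Of 28 genes tested at 60 min, 21 were upregulated and 1 downregulated, with a median log2 fold change of 0.93, and the effect on MT-ND6 lay above that at 20 s by 1.08 (adjusted p = 0.0026) and that on MT-CYB by 0.86 (adjusted p = 2.2e-06).

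**Figure D5:**
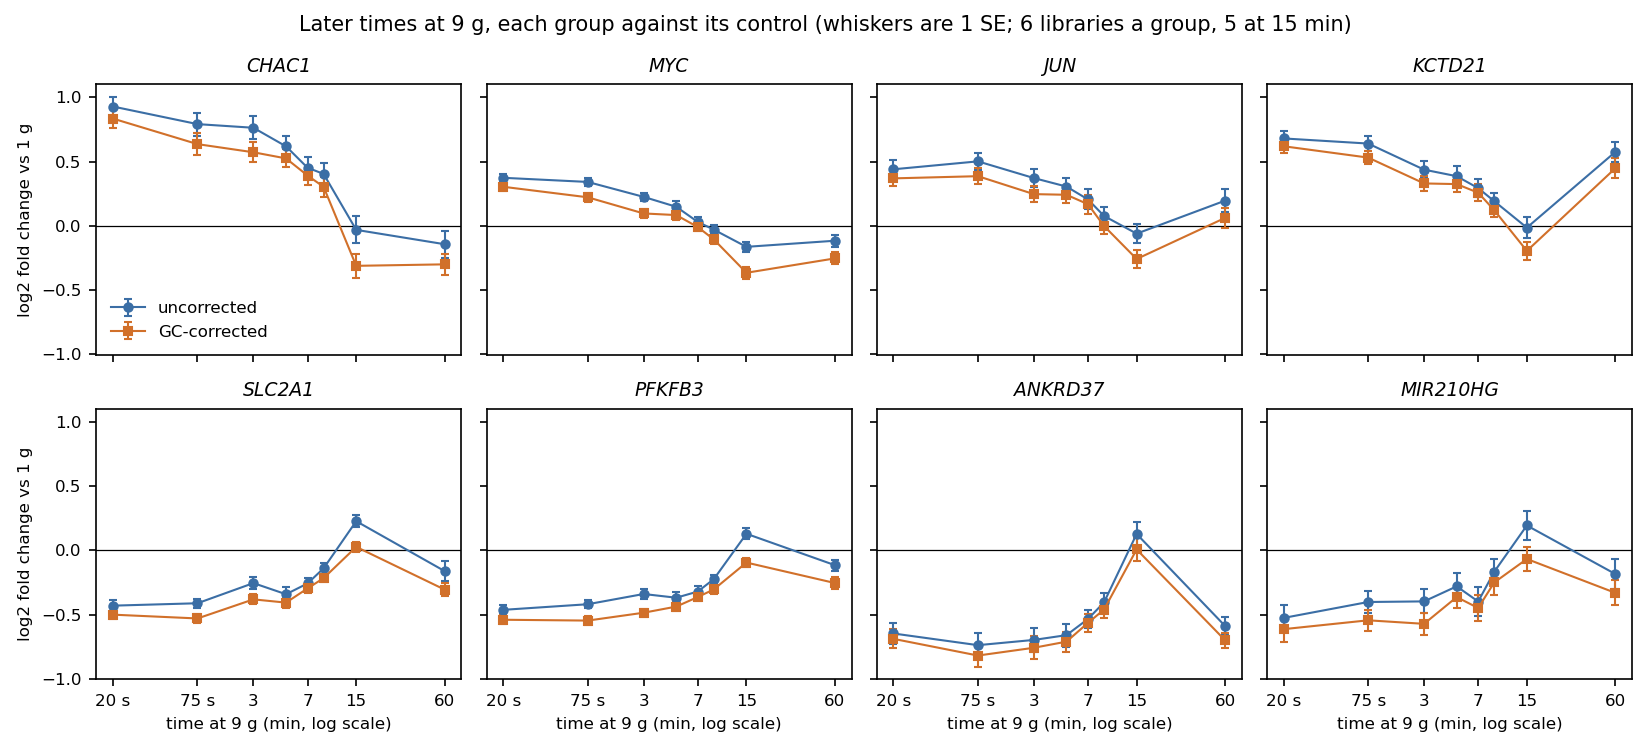
Log2 fold change ± SE of 8 genes at each time at 9 g, from 20 s to 60 min on a log axis, without and with the GC correction. Times up to 15 min are set against Ctrl and 60 min against Ctrl60; library 75 was left out at 15 min, which leaves 5 libraries there. CHAC1 and MYC are highest at 20 s and at or under 0 from 15 min on.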

How the data were processed

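RNA of Jurkat T cells was sequenced in 80 libraries, of which the 6 hypg20s and 6 Ctrl libraries were compared, with hypg75s, hypg60 and Ctrl60 (6 each) and the other times beside them. The authors trimmed reads (Trim Galore 0.6.5), aligned them to GRCh38 (STAR 2.7.3a) and deposited raw counts per gene made with featureCounts, read pairs on the reverse strand, Ensembl release 104 (version 2.0.3 in the file header, 2.0.1 in the submitters' processing notes). The table holds 60663 gene records; 1 more, broken over 3 lines, was left out. All count columns could be assigned to a sample.

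Genes were filtered with filterByExpr (minimum count 10), scaled by TMM, and tested with the quasi-likelihood test of edgeR 4.0.16 (R 4.3.3); p-values were adjusted over all genes tested by the Benjamini-Hochberg method at 0.05. The standard error is the size of the log2 fold change divided by the root of F. CPM values were scaled by TMM. For the GC correction, a lowess curve (span 0.3) of each library's log2 CPM (prior count 2) against the GC content of GENCODE release 29 transcripts was used as an offset; genes without a GC value were left out. Fits were tested on simulated data. Library measures were compared by exact permutation tests; with 6 against 6 the smallest two-sided p is 0.00216. Every pair of replicates differed by more than sampling noise. These depths limit genes of few counts most.

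Named genes were the 8 largest changes per direction called in both fits, at 10 CPM or more and without overlap, 3 per direction called in only 1 fit, up to 3 called members per gene list of at least 1 CPM, and fixed reference genes. The members, lists and tests were chosen with earlier results of these data known. The hypoxia list, the split of mitochondrial genes by strand, KCTD21, SLC25A44, MNT, YEATS2 and members named beyond 3 per list were chosen after their values were seen. Results of some genes are not reported here. Alternatives were no filter, RLE and total-count scaling, DESeq2 1.42.0, exon length correction, Ctrl60 as control, 10 groups in 1 model and each library left out. Promoters, microRNAs and their positions are from RefSeq, GRCh38.p14; the first window listed for a symbol was used.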

Additional observations from a re-analysis of the deposited data

Results flagged for a closer look

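Among 278 groups of 6 libraries (139 named genes in Ctrl and in hypg20s), 20 had a highest or lowest CPM that stood apart from the other 5 by Dixon's ratio, where chance gives about 1 in 20. Of these values 13 were in Ctrl replicate 3 and 4 in hypg20s replicate 16, the libraries with the highest level of low-GC genes in their groups. The highest value was that of Ctrl replicate 3 at 191 CPM for SRPK1, 54.4 CPM for PSMA3, 117 CPM for CAPZA1, 19.8 CPM for ORC3, 26.4 CPM for ZCRB1, 147 CPM for IFI16, 248 CPM for RAD21, 18.0 CPM for MRPL1, 20.0 CPM for NOC3L and 32.2 CPM for CAPZA2. The lowest value was that of Ctrl replicate 3 at 5.50 CPM for RELB, 3.45 CPM for EGLN3 and 9.06 CPM for HSPA1B. The highest value was that of hypg20s replicate 16 at 38.7 CPM for PSMA3 and 12.6 CPM for PUS7L. The lowest value was that of hypg20s replicate 16 at 6075 CPM for GAPDH and 8.27 CPM for CEBPA. The lowest value was that of hypg20s replicate 18 at 57.0 CPM for AHDC1. The highest value was that of hypg20s replicate 17 at 213 CPM for SNHG14. The highest value was that of Ctrl replicate 4 at 3.45 CPM for MIR210HG. The total of Ctrl replicate 2, 27.3 M counts (M, 1000000), stood apart from the other Ctrl libraries (median 34.4 M). Which of the deviations go with GC content was not tested gene by gene.

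For 30 of 139 named genes the effect at 60 min (hypg60 against Ctrl60) differed from the effect at 20 s (hypg20s against Ctrl) in a test of the difference itself (edgeR, adjusted over all genes), and all 30 were called with the same sign with the GC correction. Lower at 60 min than at 20 s were the effects on 7 genes, with log2 differences of −1.06 for CHAC1, −0.98 for EGR1, −0.62 for ZCRB1, −0.48 for MYC, −0.48 for ZFPM1, −0.29 for PHF23 and −0.27 for PMEPA1. For EGR1 the controls differed as well, with Ctrl60 above Ctrl by 1.16 ± 0.063 (log2). The effects on some chaperones were higher at 60 min, by 2.43 for HSPA1B, 1.42 for DNAJB1, 0.79 for HSPH1 and 0.61 for HSPA8. So were those on some mitochondrial transcripts, by 1.08 for MT-ND6, 0.86 for MT-CYB, 0.78 for MT-ND1, 0.72 for MT-ND2 and 0.69 for MT-CO1. HSP90AA1, DNAJA1, HSPA5, DNAJB9 and MT-TP were not called in this test. The other 14 positive differences were 1.08 for RNU6-8, 0.73 for TTC34, 0.61 for PMAIP1, 0.58 for LINC00638, 0.51 for MIR142HG, 0.51 for YEATS2 and 0.42 for MNT, as well as 0.39 for SETD1B, 0.36 for PFKFB3, 0.36 for ZFHX3-AS1, 0.30 for KMT2B, 0.28 for SLC2A1, 0.25 for PIEZO1 and 0.23 for NOTCH3. A positive difference means a higher effect at 60 min, whatever the sign at 20 s.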

How the results depend on the processing

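Of the counts of genes at 20 s, those of upregulated genes stayed within 1.5 times of 1074 (885 with the GC correction) under no filter, RLE and total-count scaling, DESeq2, exon length correction and Ctrl60 as control, between 774 and 1599 (between 775 and 1168 with the GC correction). Counts of downregulated genes moved more. Against 673, the corrected fit without a filter called 1042, and against 1384, the fit with GC and exon length correction called 747. A model of all 10 groups called 510 up and 168 down (0 and 0 with GC correction), and 499 down (406 with GC correction) without library 75 of hypg15, which lacks counts over a large part of the genome; this last alternative and the next were chosen after seeing the data. Without Ctrl replicate 3 and hypg20s replicate 16, 2143 genes were down. Leaving out 1 library gave 720 to 1586 up and 539 to 2664 down (662 to 1049 and 376 to 847 with GC correction); downregulated genes moved by over 1.5 times without Ctrl 2, 3 or 5 or hypg20s 13 to 17 (with GC correction, hypg20s 13, 14 or 15). The causes were not tested.

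The library measures differed by 0.238 to 0.402 percentage points of GC content with 1 library left out (unadjusted p under 0.05 without Ctrl 4 or hypg20s 16) and by 0.103 to 0.161 percentage points of mitochondrial counts. Between hypg75s and hypg20s, 25 and 5 genes were up and down without a filter, 80 and 2 with total counts, 175 and 94 by DESeq2 and 44 and 18 with GC correction. Between Ctrl60 and Ctrl, these were 2 and 5 with total counts, 4 and 7 by DESeq2 and 2 and 5 with GC correction. At 60 min, 4234 genes were down with GC correction, and the difference between 60 min and 20 s was positive for 897 without a filter and negative for 3016 with GC correction.

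Signs reversed with GC and exon length correction for CALM2 (0.089), MSMO1 (0.27), MRPS18C (0.012), HMGCS1 (0.11) and TXN (0.047). The GC correction alone also turned them positive (0.092, 0.28, 0.017, 0.11 and 0.049). With Ctrl60 in place of Ctrl, signs reversed for EGR1 (−0.996, and −1.06 with GC correction) and DNAJB1 (−0.17). Over the 139 named genes and 12 libraries, leaving out 1 library lost 129 calls and gained 7 without the correction, and 108 and 32 with it. No paired analysis was possible because hypg20s and Ctrl share no replicate numbers.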
